A study of Mus musculus with 41 samples.

Results

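Mitosis and kinetochore genes are the genes whose products carry a cell through division. The 58 genes described here were chosen by symbol, as mitotic kinases and cyclins, kinesins, centromere and kinetochore proteins, condensin subunits and cytokinesis factors, out of 55453 genes listed in each of the authors' 3 deposited tables. All 58 have a row in every table, and all 58 passed the authors' filter on low counts in every comparison. The samples were myeloid cells sorted from orthotopic rectal tumours of MC38-luc, a mouse colon carcinoma line carrying luciferase, in female C57BL6 mice. Untreated tumours (label UT) were compared with tumours given 5 Gy on each of 5 consecutive days (label SCRT), from day 9 to day 13 after implantation, and every tumour was taken on day 14. Tumour-associated macrophages were gated as CD45+, CD11b+, Ly6C-, Ly6G-, F480+ cells (F480 is the macrophage antigen F4/80), with 5 untreated and 10 irradiated libraries. Inflammatory monocytes were CD45+, CD11b+, Ly6C+, Ly6G- (5 and 9 libraries), and granulocytes were CD45+, CD11b+, Ly6C+, Ly6G+ (5 and 7 libraries). The mice received tumour cells of 1 line, the age of the mice is not given in the sources used here. No tumour number occurs in both treatment groups.

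Most RNA of these genes is made late in the cell cycle, from G2 into mitosis, so their level in a bulk sample follows the share of dividing cells closely. Their promoters typically carry a CHR element (cell cycle genes homology region), which MuvB protein complexes bind, and CCAAT boxes, which NF-Y binds. With the pocket proteins of the RB family MuvB forms the repressor DREAM, and with MYBL2 and FOXM1 it forms an activator. The p53 response can silence such promoters through the CDK inhibitor p21 and DREAM. In tumours, some macrophages and monocytes divide, whereas mature granulocytes have mostly left the cell cycle and their precursors divide.

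The values are the authors' comparisons of irradiated with untreated libraries. For each gene the tables give a mean normalised count over all libraries, a log2 fold change, a Wald statistic (the effect divided by its standard error, negative where the gene was lower after irradiation) and p-values before and after adjustment. A gene is called when the adjusted p is under 0.05, with its direction from the Wald statistic. The fold and the Wald statistic of a gene have the same sign in all 58, though not in every gene of the tables. The level of a gene in each library, its spread and the depth of each library were not analysed here. For the same reason the sorted cell types could not be checked against the level of their markers.

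Nearly all of the mitotic genes fell after irradiation in macrophages, most fell in granulocytes, and a minority passed the test in inflammatory monocytes. In macrophages 57 of 58 fell and 1, Pttg1, rose. Over all 16851 genes tested there, 12.5% fell and 13.9% rose. In granulocytes 48 of 58 fell and 0 rose, beside 9.9% of 15679 tested genes that fell and 7.32% that rose. The count of 0 rests on the authors' DESeq2 Wald test, and at an unadjusted p under 0.05 the 1 gene with a positive statistic, Pttg1, would count as higher. In inflammatory monocytes 12 fell, 1, again Pttg1, rose and 45 did not pass, beside 1.77% of 14506 tested genes that fell and 4.13% that rose. At an unadjusted p under 0.05 the table holds 48 of the 58 there, all lower except Pttg1. These are bulk samples of sorted cells, so fewer dividing cells and less mitotic RNA per cell cannot be told apart.

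By its median, the size of the difference followed the same order, though whether the deposited folds were shrunken is not given. The median log2 fold change of the 58 genes, from values in the authors' deposited tables, was -2.49 in macrophages, -1.92 in granulocytes and -1.14 in inflammatory monocytes. Over all genes tested the medians were 0.03, -0.03 and 0.02. Without Pttg1 the 57 genes had a median of 5.63 times lower in macrophages, 3.79 times lower in granulocytes and 2.31 times lower in inflammatory monocytes by the deposited folds. Of the 100 most negative folds among all genes tested in macrophages, 36 belonged to the mitotic genes, as did 13 of 100 in granulocytes and 16 of 100 in inflammatory monocytes. By this count inflammatory monocytes stood above granulocytes. Ordered by the Wald statistic instead, the lowest 100 held 12 in macrophages, 7 in granulocytes and 4 in inflammatory monocytes. Ccnb2, the cyclin B2 gene, had the third most negative fold of all genes tested in macrophages.

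**Figure D1:**
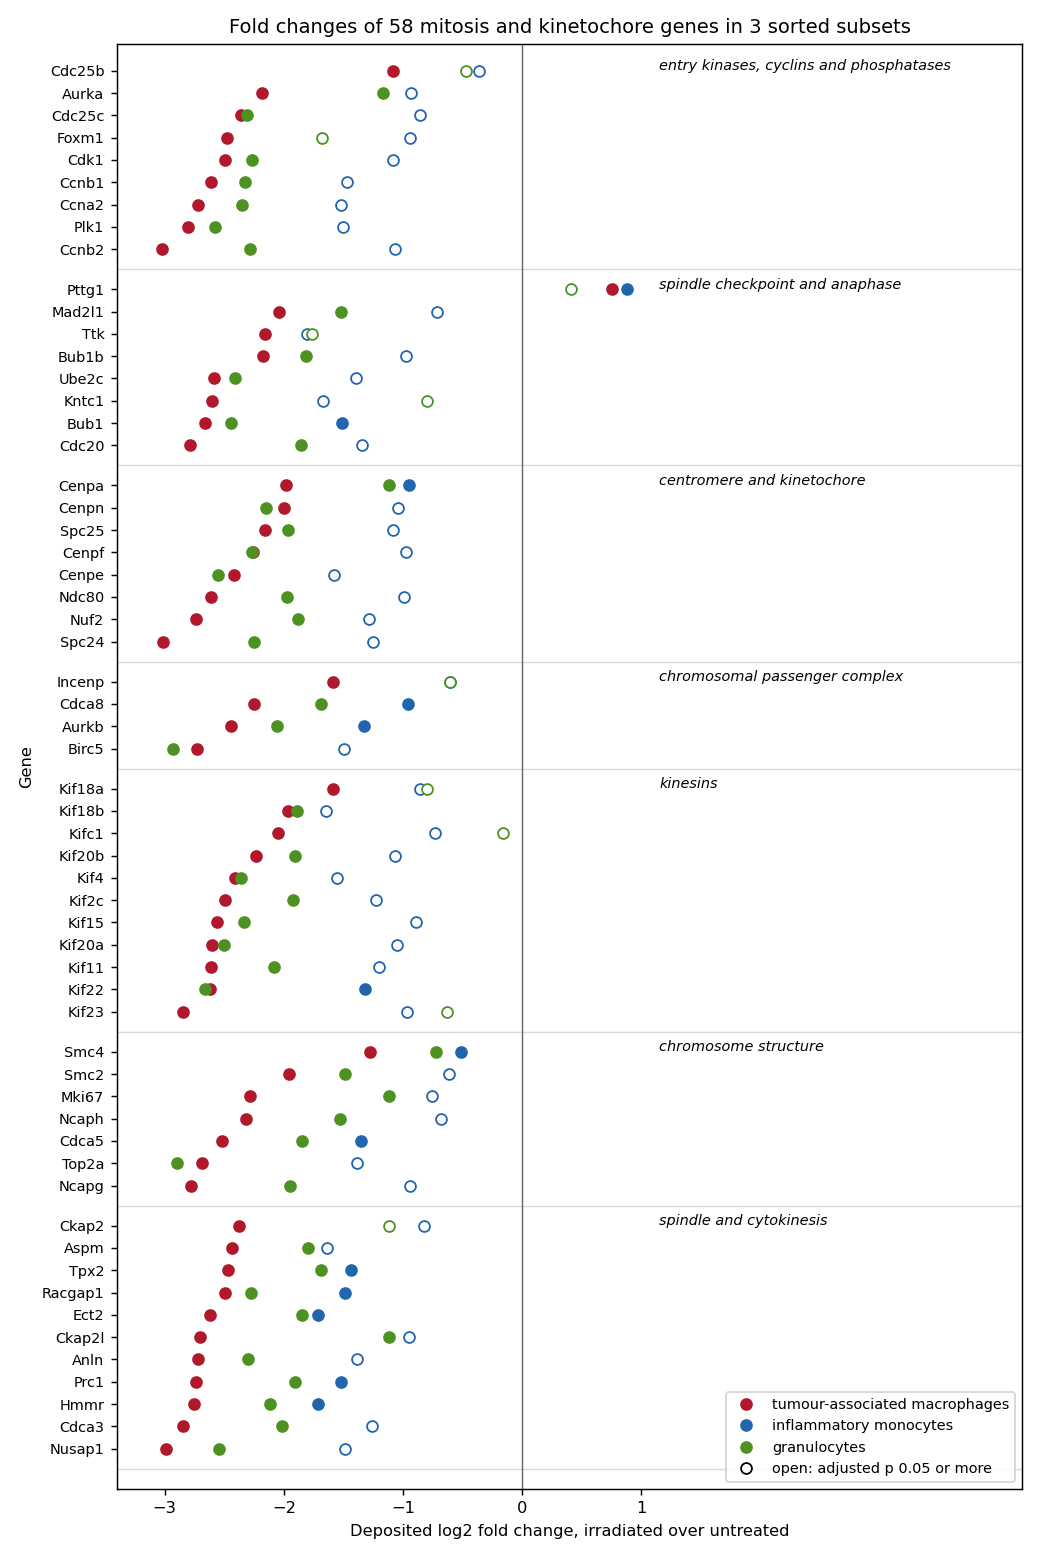
Each row is 1 gene, grouped by role, and the horizontal axis is the log2 fold change of irradiated over untreated libraries in the authors' deposited tables. Filled points have an adjusted p under 0.05 and open points do not; 57 genes lie left of 0 in all 3 subsets and Pttg1 lies right of it, while the macrophage points lie mostly farthest to the left.

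Macrophages gave the firmest calls. The authors' deposited table puts Cenpa, the histone H3 variant that marks centromeres, first among the 58, with a log2 fold change of -1.98 and a Wald statistic of -8.90 (adjusted p = 3.3e-16, mean count 590). The condensin genes Smc4 (-1.28, Wald -8.67, adjusted p = 1.9e-15, mean count 676) and Smc2 (-1.96, Wald -8.13, adjusted p = 1.1e-13, mean count 311) follow in the authors' deposited table. Mki67, the gene of the proliferation antigen Ki-67, has -2.28 in the authors' deposited table (Wald -8.09, adjusted p = 1.5e-13, mean count 416). Cdca5, which encodes the cohesion factor sororin, has -2.52 there (Wald -7.93, adjusted p = 4.6e-13, mean count 104 in the authors' deposited table). For the midzone kinesin gene Kif23 the authors' deposited table gives -2.85 (Wald -7.85, adjusted p = 8.4e-13, mean count 374). These genes come from different steps of mitosis, from chromosome structure to the spindle midzone.

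The next 4 by p-value span the checkpoint, the passenger complex and cytokinesis. Mad2l1, whose product holds back anaphase, has -2.04 in the authors' deposited table (Wald -7.74, adjusted p = 1.8e-12, mean count 279). Cdca8, the borealin gene, has -2.25 in the authors' deposited table (Wald -7.36, adjusted p = 2.6e-11, mean count 307). Racgap1, the partner of Kif23 in centralspindlin, has -2.49 in the authors' deposited table (Wald -7.25, adjusted p = 5.4e-11, mean count 519). Ncaph, a condensin I subunit gene, has -2.32 in the authors' deposited table (Wald -7.11, adjusted p = 1.4e-10, mean count 232). At the other end, the weakest calls among the 57 were those of Kif18a (adjusted p = 0.029) and Kif18b (0.018) in the authors' deposited table.

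**Figure D2:**
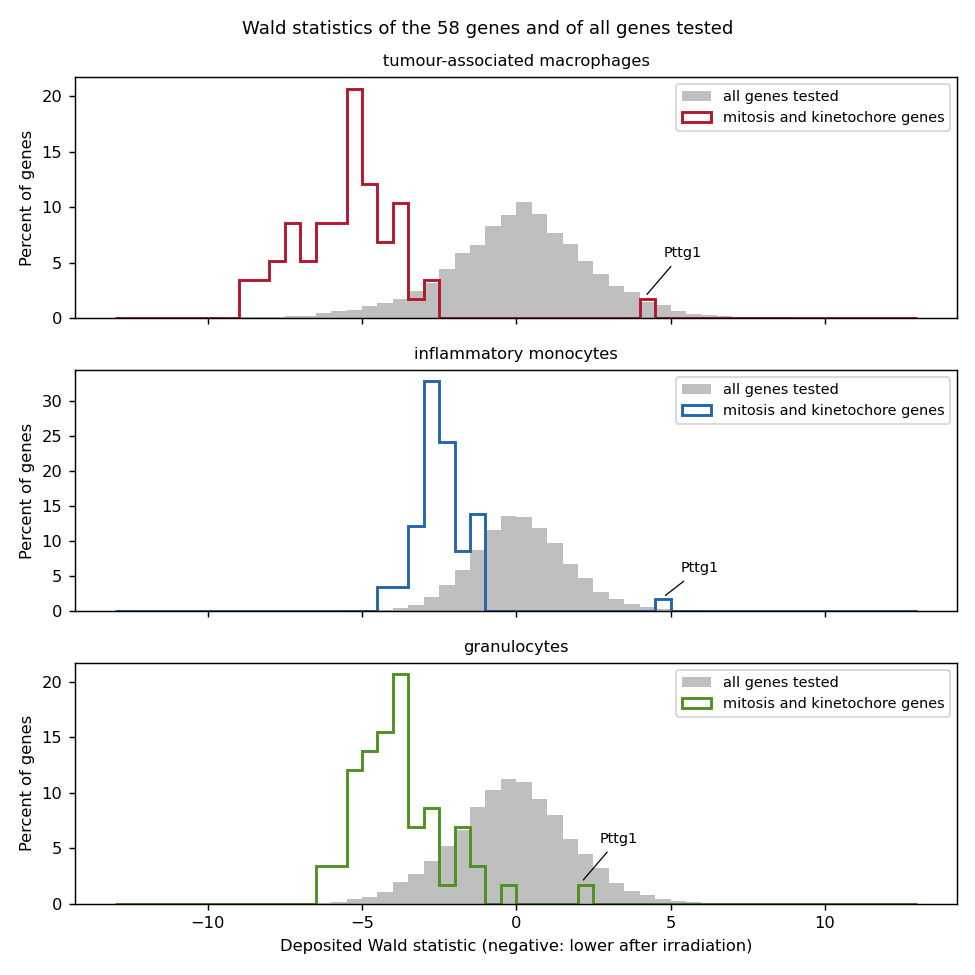
Grey bars give the percent of all tested genes in bins of the Wald statistic, and coloured outlines the same for the 58 genes, with 1 panel per subset. The outline lies left of 0 except for Pttg1 in each panel, and reaches -8.90 in macrophages, -4.20 in inflammatory monocytes and -6.14 in granulocytes.

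Promoter sequences show what many of these genes share apart from their fold. Shown are the 6 genes with the smallest macrophage p-value whose promoter window holds a CHR hexamer or a CCAAT box. The sequences are RefSeq windows of build GRCm38.p6, matched by symbol, from 150 bases before to 25 after the annotated start, 5′ to 3′ on the gene's strand. They lie for Cenpa at chr5:30666736-30666910 (+ strand), Smc2 at chr4:52439071-52439245 (+ strand), Mki67 at chr7:135716355-135716529 (- strand), Cdca5 at chr19:6084947-6085121 (+ strand), Kif23 at chr9:61946775-61946949 (- strand) and Cdca8 at chr4:124936893-124937067 (- strand). Capitals mark matches to the CHR hexamers TTTGAA and TTCGAA and to CCAAT, on either strand.

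Cenpa: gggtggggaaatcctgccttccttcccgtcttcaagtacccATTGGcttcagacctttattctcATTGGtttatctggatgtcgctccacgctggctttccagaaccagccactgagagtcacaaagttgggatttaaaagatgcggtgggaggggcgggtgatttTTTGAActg
Smc2: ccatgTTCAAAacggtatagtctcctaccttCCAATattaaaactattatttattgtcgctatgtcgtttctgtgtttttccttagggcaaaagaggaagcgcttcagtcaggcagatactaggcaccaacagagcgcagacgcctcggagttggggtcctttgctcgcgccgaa
Mki67: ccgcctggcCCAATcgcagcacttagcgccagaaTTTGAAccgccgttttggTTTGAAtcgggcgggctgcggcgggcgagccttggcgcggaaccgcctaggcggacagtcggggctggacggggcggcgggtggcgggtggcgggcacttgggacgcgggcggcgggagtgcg
Cdca5: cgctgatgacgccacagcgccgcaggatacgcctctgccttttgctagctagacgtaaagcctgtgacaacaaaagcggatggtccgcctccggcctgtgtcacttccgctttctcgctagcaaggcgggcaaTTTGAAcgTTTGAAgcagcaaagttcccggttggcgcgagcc
Kif23: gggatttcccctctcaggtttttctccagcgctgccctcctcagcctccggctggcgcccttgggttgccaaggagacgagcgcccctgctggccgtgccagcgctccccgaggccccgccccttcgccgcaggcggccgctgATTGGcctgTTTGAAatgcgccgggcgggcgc
Cdca8: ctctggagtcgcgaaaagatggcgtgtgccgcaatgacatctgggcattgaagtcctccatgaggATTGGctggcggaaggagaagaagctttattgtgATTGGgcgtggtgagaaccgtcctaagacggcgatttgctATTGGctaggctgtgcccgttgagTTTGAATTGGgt

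The authors' build was GRCm39, so these positions belong to the older build only. In Kif23 and Cdca8 a CCAAT box on the other strand lies just before the start and a CHR hexamer just after it, at positions 3 and 14, where the start is base 1, the base before it is -1, and a position is that of a match's first base. The Cenpa window has CCAAT matches at -109 and -86 and a CHR at 17. Cdca5 holds CHR hexamers at -17 and -9, close to each other, and Mki67 at -116 and -98. In Smc2 the matches shown lie farther from the start, at -145 for the CHR and -119 for CCAAT.

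For contrast, Pttg1 and the 2 genes with the smallest macrophage p-value among those without a match in their window are shown from the same table. They lie for Pttg1 at chr11:43425957-43426131 (- strand), Mad2l1 at chr6:66535071-66535245 (+ strand) and Ncaph at chr2:127133930-127134104 (- strand).

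Pttg1: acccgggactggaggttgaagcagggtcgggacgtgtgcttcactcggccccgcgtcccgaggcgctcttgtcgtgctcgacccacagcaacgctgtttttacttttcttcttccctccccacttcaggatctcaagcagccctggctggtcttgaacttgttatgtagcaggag
Mad2l1: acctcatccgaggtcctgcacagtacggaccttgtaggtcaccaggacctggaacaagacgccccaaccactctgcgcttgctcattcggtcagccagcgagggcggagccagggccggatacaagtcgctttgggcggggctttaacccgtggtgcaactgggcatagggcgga
Ncaph: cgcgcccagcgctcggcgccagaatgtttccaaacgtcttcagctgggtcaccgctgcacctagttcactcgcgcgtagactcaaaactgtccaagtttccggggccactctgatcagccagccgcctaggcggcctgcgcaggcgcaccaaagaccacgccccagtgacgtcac

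RefSeq windows of 300 bases (250 before to 50 after the start) were found for 49 of the 58 genes, 51 windows in all because Ect2 and Prc1 have 2 each. Of these, 42 windows (82.4%) held a CHR hexamer (TTTGAA or TTCGAA, either strand), against 19.2% of all 32851 windows of the table. CCAAT on either strand was in 38 (74.5%), against 37.4%, and both motifs together in 36 (70.6%), against 7.52%. Within 50 bases of the start a CHR match was in 39 windows (76.5%), against 5.31%, a distance chosen after the matches were seen. Matches of CHR and CCAAT overlapped in 2 windows of these genes. A match is only a run of letters and was not tested as a binding site.

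**Figure D3:**
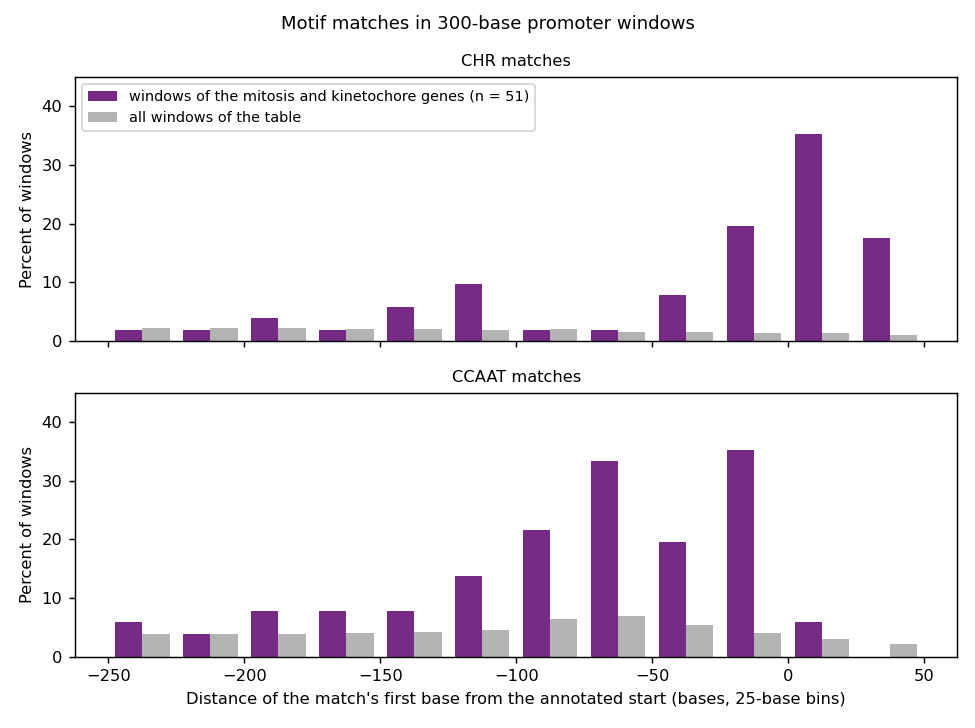
Bars give the percent of promoter windows with a CHR (upper) or CCAAT (lower) match that begins in each 25-base bin of distance from the annotated start, purple for the 51 windows of the mitotic genes and grey for all windows of the table. CHR matches of the mitotic genes are most frequent in the first 25 bases after the start (35.3% against 1.43%), and CCAAT matches in the 25 bases before it (35.3% against 4.05%). CCAAT matches that begin 50 to 75 bases before the start are nearly as frequent (33.3% against 6.99%).

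The difference in fold between genes with and without these letters was not tested. The 34 genes with both motifs had a median log2 fold change of -2.49 in macrophages, and the 6 with a CHR only had -2.54. Ccnb1 and Cenpe, with CCAAT only, had -2.61 and -2.42 in the authors' deposited table. The 7 with neither were Birc5, Kif18a, Mad2l1, Ncaph, Nuf2, Nusap1 and Pttg1, and 6 of them fell in macrophages, with Pttg1 as the exception. Their median log2 fold changes were -2.32, -1.53 and -0.86 in macrophages, granulocytes and inflammatory monocytes, beside -2.49, -1.90 and -1.14 for the 34 with both motifs. The medians of the 7 include Pttg1, whose positive folds pull them toward 0, and medians without it were not computed. Apart from Pttg1, folds of genes with neither motif ran from -2.99 (Nusap1) to -1.58 (Kif18a) in macrophages. Those of the 34 ran from -3.02 to -1.08 there. In inflammatory monocytes 0 of these 7 and 8 of the 34 fell by the authors' DESeq2 test. At an unadjusted p under 0.05, Birc5, Mad2l1, Ncaph, Nuf2 and Nusap1 would count as lower there and Pttg1 as higher, while Kif18a would not pass. Over all 58 genes, 48 had such a p there. In Pttg1 these letters are absent from this window, as they are from genes that fell.

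Genes that drive entry into mitosis all fell in macrophages. Cdk1, the mitotic kinase, has -2.49 in the authors' deposited table, its partners Ccnb1, Ccnb2 and Ccna2 have -2.61, -3.02 and -2.72, and the kinases Plk1 and Aurka -2.80 and -2.19. Foxm1, a transcription factor of G2 and M phase genes, has -2.48, the phosphatase gene Cdc25c -2.36 and Cdc25b the smallest fold of the 57, -1.08, in the authors' deposited table. In granulocytes 7 of these 9 fell. Cdk1 had the smallest p-value among them there (-2.27, Wald -5.53, adjusted p = 4.0e-06 in the authors' deposited table), and Foxm1 missed the threshold narrowly (-1.68, adjusted p = 0.0501 in the authors' deposited table). In inflammatory monocytes 0 of 9 passed by the authors' DESeq2 test, with 6 at an unadjusted p under 0.05. Their folds ran from -0.36 for Cdc25b to -1.52 for Ccna2 in the authors' deposited table.

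Among the 8 genes of the spindle checkpoint and anaphase, 7 fell in macrophages and Pttg1 rose. Bub1, a checkpoint kinase gene, fell in all 3 subsets (-2.66 in macrophages, -2.44 in granulocytes and -1.51 in inflammatory monocytes in the authors' deposited tables, the last with an adjusted p of 0.048). Cdc20, which activates the anaphase-promoting complex, and its E2 enzyme gene Ube2c have -2.79 and -2.59 in macrophages and -1.86 and -2.41 in granulocytes in the authors' deposited tables. The checkpoint genes Bub1b and Mad2l1 fell in both subsets too, and Mad2l1 was among the firmest granulocyte calls (-1.52, Wald -5.26, adjusted p = 1.2e-05 in the authors' deposited table). Kntc1, which encodes the ROD subunit of the checkpoint's RZZ complex, fell in macrophages (-2.61) and had -0.80 in granulocytes (adjusted p = 0.416), both from the authors' deposited tables. The kinase gene Ttk had -2.16, -1.76 and -1.81 in macrophages, granulocytes and inflammatory monocytes in the authors' deposited tables, and only the first passed, at a mean count of 53.4.

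Pttg1 encodes securin, the inhibitor that separase must lose before sister chromatids part. It was higher after irradiation in macrophages, where the authors' deposited table gives a log2 fold change of 0.76 (Wald 4.16, adjusted p = 3.7e-04, mean count 1334). In inflammatory monocytes it had the smallest p-value of the 58 genes (0.88, Wald 4.74, adjusted p = 3.0e-04 in the authors' deposited table). In granulocytes the authors' deposited table gives 0.41 (adjusted p = 0.134), which did not pass. Espl1, the gene of separase itself, fell in macrophages (-0.74, adjusted p = 0.017) and had -0.67 and -0.01 in inflammatory monocytes and granulocytes without passing, in the authors' deposited tables. In the mouse annotation GENCODE M21 no exon of Pttg1 overlapped another gene, and no transcript of another gene aligned to it at 95% identity over 300 bases. Both folds were under 1 on the log2 scale, so with a fold threshold of 1 neither would be called.

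Centromere and kinetochore genes fell together in both macrophages and granulocytes, 8 of 8 in each. The authors' deposited tables give the NDC80 complex genes Ndc80, Nuf2, Spc24 and Spc25, which grip microtubules, -2.61, -2.74, -3.01 and -2.15 in macrophages, and -1.98, -1.88, -2.25 and -1.97 in granulocytes. The motor gene Cenpe and the large coiled-coil gene Cenpf had -2.42 and -2.26 in macrophages and -2.55 and -2.27 in granulocytes in the authors' deposited tables. Cenpn, whose product reads the CENP-A nucleosome, had -1.998 and -2.15 in the same order in the authors' deposited tables. In inflammatory monocytes Cenpa alone of the 8 passed (-0.95, Wald -4.16, adjusted p = 0.0022 in the authors' deposited table), and 7 had an unadjusted p under 0.05. Cenpe stood just outside the threshold there, at -1.58 (adjusted p = 0.052 in the authors' deposited table).

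The chromosomal passenger complex holds the kinase Aurora B at centromeres and later at the midzone. All 4 of its genes fell in macrophages, with -2.45 for Aurkb, -2.73 for Birc5 (survivin), -2.25 for Cdca8 and -1.59 for the scaffold gene Incenp in the authors' deposited table. In granulocytes Birc5 had the most negative fold of all 58 genes (-2.93, Wald -5.23, adjusted p = 1.4e-05 in the authors' deposited table). Cdca8 fell there as well (-1.69, Wald -5.06, adjusted p = 2.9e-05), and Incenp had -0.61 (adjusted p = 0.179), by the authors' deposited table. In inflammatory monocytes Aurkb (-1.33, Wald -3.39, adjusted p = 0.02) and Cdca8 (-0.96, adjusted p = 0.047) passed in the authors' deposited table.

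All 11 kinesins fell in macrophages, with log2 fold changes from -2.85 for Kif23 to -1.58 for Kif18a in the authors' deposited table. Kif22, a chromokinesin that moves chromosome arms, fell in all 3 subsets and had the smallest p-value of the 58 genes in granulocytes (-2.66, Wald -6.14, adjusted p = 2.3e-07 in the authors' deposited table). Its value in inflammatory monocytes was -1.32 (Wald -3.18, adjusted p = 0.033 in the authors' deposited table). Kif20a, a midzone kinesin gene, had -2.50 in granulocytes (Wald -5.37, adjusted p = 8.1e-06 in the authors' deposited table). The spindle motor Kif11, the related motor Kif15, the depolymerase Kif2c, the chromokinesin Kif4 and Kif20b had values between -2.23 and -2.61 in macrophages and between -1.91 and -2.36 in granulocytes in the authors' deposited tables, each called. Kif18b fell in both as well, at -1.96 and -1.89 in the authors' deposited tables. The 3 that did not pass in granulocytes were Kif23 (-0.63, adjusted p = 0.249), Kifc1 (-0.16, adjusted p = 0.893) and Kif18a (-0.80, adjusted p = 0.438) in the authors' deposited table. Kifc1, a minus-end motor, has a near-identical copy: transcripts of Kifc5b align to it at 95.9% identity over 2378 bases, so reads of both genes may be divided between them.

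Genes of chromosome structure fell 7 of 7 in macrophages and in granulocytes. Top2a, the topoisomerase that untangles sister chromatids, had -2.69 in macrophages and -2.89 in granulocytes (Wald -5.42, adjusted p = 6.4e-06 for the latter in the authors' deposited tables). The condensin genes Smc2 (-1.49, Wald -5.57, adjusted p = 3.3e-06), Smc4 (-0.73), Ncapg (-1.95) and Ncaph (-1.53) fell in granulocytes in the authors' deposited table, as did Cdca5 (-1.85, Wald -5.18, adjusted p = 1.8e-05). Mki67 had -1.12 in granulocytes (adjusted p = 0.0039) and -0.76 in inflammatory monocytes (adjusted p = 0.11) in the authors' deposited tables. In inflammatory monocytes Cdca5 (-1.35, Wald -3.98, adjusted p = 0.004) and Smc4 (-0.51, Wald -3.35, adjusted p = 0.022) passed in the authors' deposited table. Smc4 thus joins one of the smallest folds of the 58 to one of the largest Wald statistics.

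Spindle and cytokinesis genes gave 11 of 11 lower in macrophages, 10 in granulocytes and 5 in inflammatory monocytes. The 5 were Racgap1 (-1.49, Wald -4.20, adjusted p = 0.002), the cytokinesis gene Ect2 (-1.71, Wald -3.87, adjusted p = 0.0055), the microtubule bundler Prc1 (-1.52, adjusted p = 0.041), Hmmr (-1.71, adjusted p = 0.047) and the Aurora A activator Tpx2 (-1.44, adjusted p = 0.047) in the authors' deposited table. Racgap1 was second by p-value in granulocytes (-2.27, Wald -6.13, adjusted p = 2.3e-07 in the authors' deposited table). Nusap1, a spindle microtubule protein gene, had -2.99 in macrophages and -2.54 in granulocytes in the authors' deposited tables. The cleavage furrow gene Anln, the spindle pole gene Aspm and Cdca3 had -2.72, -2.43 and -2.85 in macrophages and -2.30, -1.80 and -2.02 in granulocytes in the authors' deposited tables. Ckap2l passed in granulocytes (-1.11, adjusted p = 0.041) and its relative Ckap2 did not (-1.12, adjusted p = 0.166), at nearly the same fold in the authors' deposited table.

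Set side by side, 12 genes fell in every subset: Aurkb, Bub1, Cdca5, Cdca8, Cenpa, Ect2, Hmmr, Kif22, Prc1, Racgap1, Smc4 and Tpx2. A further 36 passed in macrophages and granulocytes and missed the threshold in inflammatory monocytes, where 31 of them had an unadjusted p under 0.05. The other 9 passed in macrophages and missed it elsewhere, which does not show that the subsets differ, namely Cdc25b, Ckap2, Foxm1, Incenp, Kif18a, Kif23, Kifc1, Kntc1 and Ttk. Over all genes tested 12.5% fell in macrophages, 9.9% in granulocytes and 1.77% in inflammatory monocytes, so fewer genes of any kind passed in the last. The share of all genes with each of these patterns was not counted. The libraries of the 3 subsets are separate but share tumour numbers: all 5 untreated tumours gave each subset, and 6 of the 10 irradiated tumours did, so the irradiated sets differ in part. The fold was more negative in macrophages than in inflammatory monocytes for 57 genes, and for Pttg1 it was less positive. Against granulocytes it was more negative in macrophages for 51 of 58, the others being Birc5, Cenpe, Cenpf, Cenpn, Kif22, Top2a and Pttg1. The widest gap was that of Kif23, at -2.85 in macrophages and -0.63 in granulocytes in the authors' deposited tables, followed by Kifc1 and Kntc1. The size of these gaps was not tested, since the tables give no standard error of the fold. A test of opposite directions (the larger of both p-values where signs differ, Benjamini-Hochberg adjusted over genes tested in both) called 0 of the 58 for any pair of subsets, and 0 differed in sign at any p. With no sign that differs, the test could not call any of them. Over all genes it called 15 of 15679 for macrophages and granulocytes. It called 0 of 14506 for each pair with inflammatory monocytes.

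**Figure D4:**
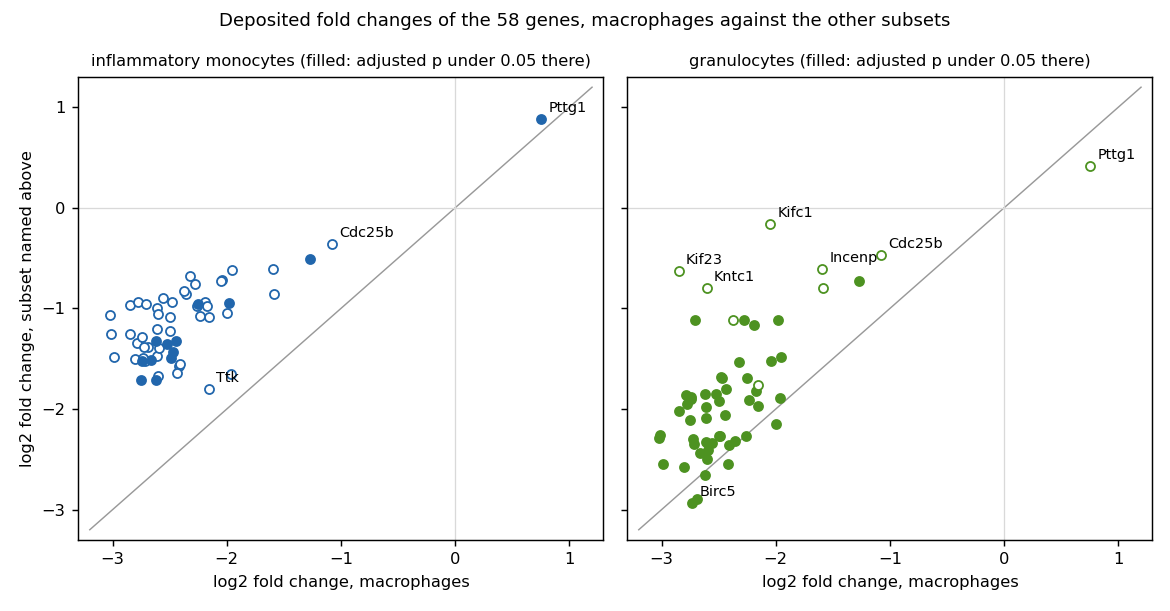
Each point is 1 of the 58 genes, with its macrophage log2 fold change on the horizontal axis and that of inflammatory monocytes (left) or granulocytes (right) on the vertical axis, from the authors' deposited tables; the grey line marks equal folds. All points of the left panel lie above the line, and in the right panel Kif23, Kifc1 and Kntc1 stand farthest above it.

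Other genes of the same machinery were taken from lists outside the 58, and differences between lists were not tested. Of 30 further kinetochore genes, 24 fell in macrophages, 12 in granulocytes and 0 in inflammatory monocytes by the authors' DESeq2 test (8 at an unadjusted p under 0.05), and 0 rose in any of them. Over all genes tested 12.5% fell in macrophages, 9.9% in granulocytes and 1.77% in inflammatory monocytes, and 13.9%, 7.32% and 4.13% rose. The 0 of 30 that fell in inflammatory monocytes is near the share there. The fold of all 30 was below 0 in macrophages. The authors' deposited table gives the inner kinetochore gene Cenpq -1.73 (adjusted p = 2.9e-09), Pmf1 of the MIS12 complex -1.11 (1.5e-08), Cenpw -2.25 (9.2e-07) and Nsl1 -2.48 (1.4e-06) in macrophages. Of 40 other mitotic regulators and spindle genes, 31 fell in macrophages, 22 in granulocytes and 3 in inflammatory monocytes, beside the same shares over all genes. Cks1b, a CDK subunit gene, had -2.49 (adjusted p = 1.3e-14) and the spindle gene Tacc3 -2.36 (1.6e-13), Knstrn -2.74 (4.7e-10) and Troap -3.16 (4.5e-08) in macrophages in the authors' deposited table.

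Condensin compacts chromosomes and cohesin holds sister chromatids together. Of 15 other condensin and cohesin genes 8 fell and 3 rose in macrophages (12.5% and 13.9% over all genes tested), 6 fell in granulocytes and 0 passed in inflammatory monocytes (1 at an unadjusted p under 0.05). The condensin genes Ncapd2 (-2.19, adjusted p = 6.8e-09), Ncaph2 (-0.57, 1.0e-07) and Ncapd3 (-1.14, 2.6e-06) and the cohesin gene Smc1a (-0.50, 4.4e-06) fell in macrophages in the authors' deposited table. The most negative fold of the list there was that of the cohesin acetyltransferase gene Esco2 (-2.65, adjusted p = 2.0e-04 in the authors' deposited table), named after its value was seen. The 3 that rose there were Stag2 (0.47), Esco1 (0.46) and Nipbl (0.39) in the authors' deposited table, a share near that of all genes. Esco1, another cohesin acetyltransferase gene, fell in granulocytes (-0.51, adjusted p = 0.02 in the authors' deposited table). For the anaphase-promoting complex and its activator Fzr1, 4 of 15 genes fell in macrophages, 2 in granulocytes and 0 in inflammatory monocytes by the authors' DESeq2 test (0 at an unadjusted p under 0.05). Over all genes tested 12.5%, 9.9% and 1.77% fell, so the granulocyte and monocyte counts are near the background. The list had a median log2 fold change of -0.23, -0.01 and 0.05. Anapc11, Anapc15, Cdc23 and Anapc5 were the 4 of macrophages, with -0.71, -0.81, -0.54 and -0.36 in the authors' deposited table. Cdc23 (-0.54) and Cdc27 (-0.86) were those of granulocytes in the authors' deposited table.

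Among 19 regulators of this gene group, 11 fell and 2 rose in macrophages, 4 fell and 2 rose in granulocytes, and 3 fell and 1 rose in inflammatory monocytes. Over all genes tested 12.5%, 9.9% and 1.77% fell in the same order, and 13.9%, 7.32% and 4.13% rose. The counts of regulators that rose are near these shares. Rbl2, which encodes the DREAM pocket protein p130, rose in all 3 subsets (1.06, 0.75 and 0.69 in macrophages, inflammatory monocytes and granulocytes, adjusted p = 9.9e-07, 0.0056 and 0.0082 in the authors' deposited tables). Mybl2, the activator that joins MuvB in cycling cells, fell in all 3 (-2.09, -1.44 and -2.03, adjusted p = 4.1e-05, 0.037 and 7.3e-04 in the same order in the authors' deposited tables). The retinoblastoma gene Rb1 rose in macrophages (0.75, adjusted p = 8.0e-07), where E2f8 (-2.08, 1.6e-08), E2f2 (-1.82, 1.0e-07) and the E2F partner gene Tfdp1 (-0.84, 6.6e-07) fell, in the authors' deposited table. Rbl2 and Mybl2 were singled out after their values were seen. Of 8 cyclins and kinases of G1 and S phase, 5 fell in macrophages, 3 in granulocytes and 1 in inflammatory monocytes. Cdk4, which pairs with D cyclins, passed in each (-0.97, -0.71 and -0.43 in macrophages, granulocytes and inflammatory monocytes in the authors' deposited tables), and Ccne2, Ccne1 and Cdk2 fell in macrophages (-2.29, -1.92 and -0.73 in the authors' deposited table).

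**Figure D5:**
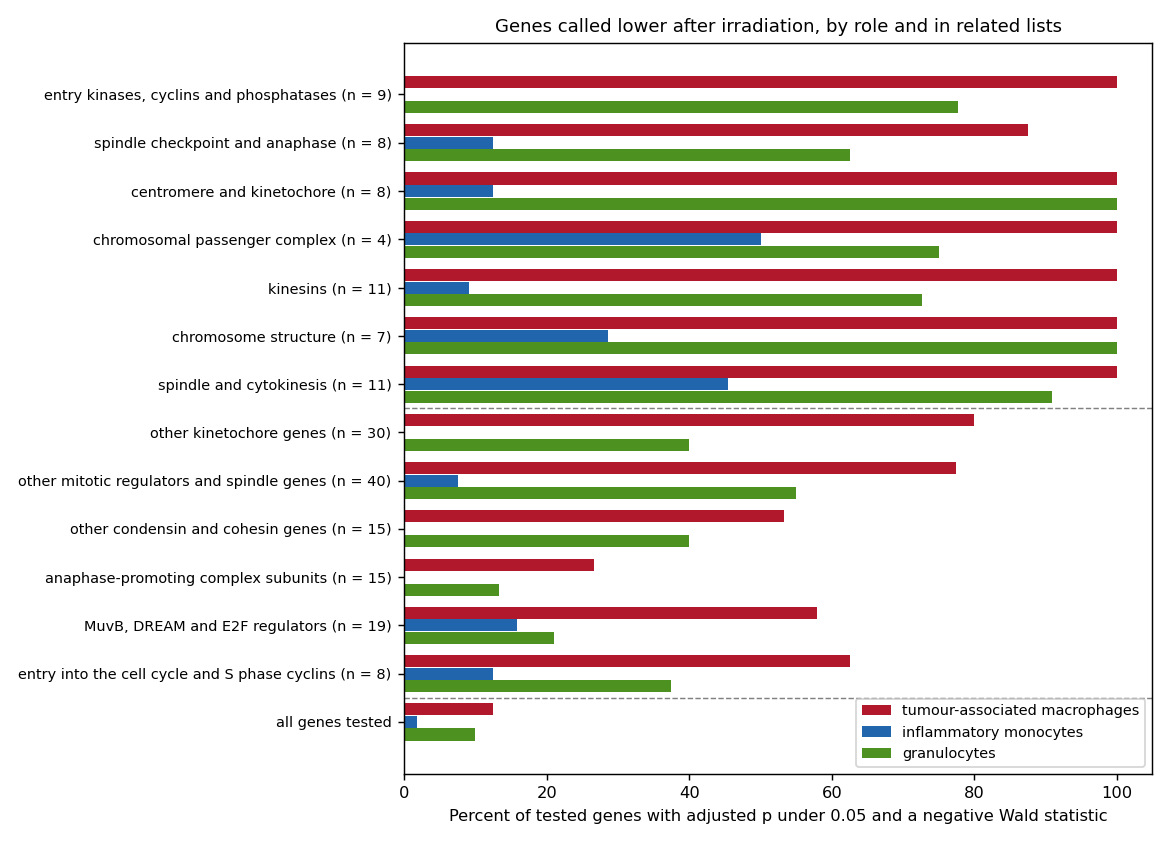
Bars give the percent of tested genes in each list that were called lower, by subset, for the 7 roles of the 58 genes (top), the 6 related lists (middle) and all genes tested (bottom). Every role reaches over 80% in macrophages, the anaphase-promoting complex has 4 of 15 genes there, and all genes tested stand at 12.5%.

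Markers of other cells were read in the same comparisons, and their part in the mitotic result was not tested. By the number of calls alone, lists with 1 or 2 are near the shares over all genes tested (12.5% lower and 13.9% higher in macrophages, 9.9% and 7.32% in granulocytes). In macrophages, markers of epithelial and tumour cells gave 0 of 13 lower and 3 higher, with a median log2 fold change of 1.52, monocyte markers 0 of 5 lower and 3 higher, and granulocyte markers 0 of 7 lower and 6 higher by the Wald statistic. Of those 6, S100a9 and S100a8 carry negative folds (-1.24 and -0.05 in the authors' deposited table), so their direction is uncertain. Stromal markers gave 3 of 8 lower and 1 higher (Col1a1 had -1.77 by the authors' deposited table), dendritic cell markers 4 of 8 lower, T and NK cell markers 2 of 10 lower, B cell markers 1 of 6 lower, and macrophage markers 0 of 7 lower and 1 higher. Granulocyte progenitor genes, which mark dividing precursors, gave 0 of 5 lower in every subset, and Prtn3 among them rose in macrophages and granulocytes (1.12 and 1.08, adjusted p = 0.0029 and 0.011 in the authors' deposited tables). The other tested genes of the list did not pass and went both ways. In macrophages Mpo and Ms4a3 had -0.50 and -0.80, and Elane and Fcnb 1.10 and 0.205. In granulocytes Mpo alone of the tested genes had a negative fold (-0.23). The precursor genes Mpo, Elane and Ctsg had mean counts of 8.57, 11.7 and 2.25 in the authors' deposited tables. Ctsg was not tested in any subset. In granulocytes, stromal markers gave 3 of 8 and T and NK cell markers 2 of 10 lower, while macrophage and monocyte markers gave 3 of 7 and 3 of 5 higher. In inflammatory monocytes 6 of 7 macrophage and 5 of 7 granulocyte markers rose, beside 1.77% of all genes tested that fell and 4.13% that rose. Single calls were Muc13, 1 of 12 tested epithelial markers, and Cd79a, 1 of 6 B cell markers, both higher. No marker fell there by the authors' DESeq2 test, but all 10 T and NK cell markers had a negative fold (median -0.74), 4 of them with an unadjusted p under 0.05. In granulocytes too all 10 of these had a negative fold (median -1.16), 6 of them at that unadjusted p. In macrophages 9 of 10 did (median -0.92), and 4 of the 10 had such a p. The level of each marker list in each group was not analysed here.

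Exons of other genes overlap those of 17 of the 58. In GENCODE M21, an annotation of build GRCm38, exons of 15 of them overlap a gene on the opposite strand, and the kit keeps no strand, so such reads cannot be told apart. The largest overlap is that of Kif20a with Cdc23, at 29.3% of its exon bases, and Cdc23 fell less (-0.54 against -2.60 in macrophages in the authors' deposited table). Ccna2 and Exosc9 overlap by 12.5% of the exon bases of Ccna2, and Exosc9 had -0.46 in macrophages in the authors' deposited table. Some overlapping genes have higher counts than the mitotic gene. Pdzd11 (mean count 541) covers 15.1% of the exon bases of Kif4 (71.7), and Lcorl (364) covers 13.4% of those of Ncapg (139). How far such reads shift the folds was not tested.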

How the data were processed

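Total RNA of sorted cells was made into Nextera XT libraries, which keep no strand, and sequenced, per the labels' protocols. Per the submitters' processing notes the analysis used R 4.0.2 and DESeq2 1.28.1, besides fastp 0.20.1 and the aligner STAR 2.7.6a, on build GRCm39 (mm39). How reads were counted, with which annotation and which design formula, is not given in the sources used here. Mean normalised counts, a signal column of the deposited tables, are equal in all 3 of them. How the deposited log2 fold changes were estimated, and whether they were shrunken, is not given in the sources used here. In macrophages 16 called genes carry a fold and a Wald statistic of different sign (0 of the 58 do), so folds and tests need not come from 1 estimate. Wald statistics form the deposited score column, and p-values and adjusted p-values are those the authors deposited.

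Members and gene lists were chosen with earlier results of these data known. Genes were counted at the authors' adjusted p under 0.05. Full values are given for the 10 members with the smallest p in each comparison and for those against the common direction, and for up to 4 called genes with the smallest p of each related list. The numbers of libraries are 5 to 10 per group, and whether a tumour number is 1 mouse is not stated. The p-values set each difference against a spread between libraries. Mean normalised counts are equal in all 3 comparisons, so that spread may have been estimated over the libraries of all subsets together, which is not stated. Alternatives were other thresholds, adjustment over every gene, a mean count of at least 50, a fold minimum, a scaled null, re-centring and direction by fold. Calling rules were tested on simulated data without the wide spread of the deposited Wald statistics. Their robust SD was 2.11 in macrophages, 1.48 in inflammatory monocytes and 1.81 in granulocytes. That check therefore lends the calls given here no support. Promoters came from RefSeq (GRCm38.p6), overlaps from GENCODE M21. Python 3.11.15, pandas 2.3.3, numpy 2.4.6, scipy 1.17.1, matplotlib 3.10.9 and minimap2 were used.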

Additional observations from a re-analysis of the deposited data

How the results depend on the processing

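The number of mitotic genes that fell in macrophages stayed between 54 and 57 under other thresholds, adjustment over every gene, a fold minimum, a mean count of at least 50, re-centring and direction by fold, and that in granulocytes between 43 and 50. In inflammatory monocytes the count of 12 depended on the threshold: 4 fell at an adjusted p under 0.01, 23 at 0.1, and 6 when every gene holding a p-value entered the adjustment. Wald statistics divided by their robust SD gave 7 genes lower in macrophages (beside 0.279% of all genes tested), 0 in inflammatory monocytes and 0 in granulocytes; this setting takes the wide spread of all statistics as the null. Pttg1 was not called where the fold also had to reach 1 on the log2 scale, which gives 0 higher genes in macrophages and 0 in inflammatory monocytes, nor after division by the robust SD (0 and 0). Each alternative was also applied to the genes given in full: 220 of the results kept their side of the threshold and 36 lost it. Of these 36, 24 came under the robust SD, and 0 changed sign. The thresholds of 0.01 and 0.1, the fold minimum and direction by fold reused the deposited adjusted p, so only the other settings recomputed it. The 220 include 32 under the looser threshold of 0.1, which could lose no call. They also include 32 under direction by fold, where fold and Wald statistic of these genes have the same sign. Those results are therefore no evidence of stability. No member was called opposite between subsets under the 5 of these settings run for that test (both thresholds, mean count, robust SD and re-centring). As no member differs in sign between subsets, all of these except re-centring could not have given a call, so they add no support. No paired analysis was possible because the tables hold no values of single libraries, and for the same reason no library could be left out in turn. Genes with few counts, such as Kifc1 with a mean count of 44.7, give less precise values, and a missed call there does not show that a gene stayed level.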

Other observations

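Some genes named for mitosis did not follow the 58; they were chosen after their values were seen. Gtse1, which encodes a microtubule protein of G2 and S phase, had a log2 fold change of 0.06 in macrophages (adjusted p = 0.968) and Iqgap3 0.21 (adjusted p = 0.584) in the authors' deposited table. The kinetochore gene Zwint had -0.11 (adjusted p = 0.502), and Cenpl -0.01 (adjusted p = 0.992), in the same comparison of the authors' deposited table. In granulocytes Cenpj, a centriole gene, had 0.73 (adjusted p = 0.113) in the authors' deposited table. Mastl, the Greatwall kinase gene, fell in macrophages (-2.53, adjusted p = 6.5e-08) and had -0.34 in granulocytes (adjusted p = 0.672) in the authors' deposited tables, a gap like that of Kif23 that was not tested.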
